A study of Mus musculus with 5 samples.

Results

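Ribosomal protein genes and translation factor genes were followed through 2 lists of binding sites (peaks) of the zinc finger protein ZFP24 (older name ZFP191) in mouse oligodendrocytes (OLG) and in their progenitors (OPC). Members were all protein-coding genes of the GENCODE M21 basic annotation (mouse build mm10) whose symbol starts with Rpl or Rps, or with Eif or Eef, followed by a digit, without the Rps6k kinases and without pseudogene names ending in -ps. The rule found 149 genes on chromosomes 1 to 19 and X, of the 21668 protein-coding genes with a protein-coding transcript there. They were 49 genes named for the large ribosomal subunit, 33 named for the small subunit and 67 factor genes, of which 54 were Eif and 13 Eef. Another member, Eif2s3y, lies on the Y chromosome, which is in neither list, and was not analysed here. A name does not make every member a part of the ribosome or a factor. The rule also took in Rps19bp1, whose product binds a ribosomal protein, the Eif2ak kinases, and the Eef1akmt enzymes, which methylate an elongation factor.

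The ribosome builds proteins from a large and a small subunit, each made of ribosomal RNA and many ribosomal proteins. Initiation factors (eIF) bring the small subunit, the starter transfer RNA and the messenger RNA together, and elongation factors (eEF) carry transfer RNAs to the ribosome and move it along. Many of these genes have a terminal oligopyrimidine (TOP) tract at the start of their messenger RNA, through which the mTOR kinase governs their translation. Oligodendrocytes make large amounts of membrane protein when they form myelin, and in humans mutations of the subunits of eIF2B, the exchange factor of eIF2, cause a disease of the white matter.

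The series held 5 chromatin immunoprecipitation sequencing (ChIP-seq) libraries from brain cells of C57BL/6 mice at postnatal day 7, with 1 library per group. They were wild-type OLG with Zfp191-null OLG as their control, wild-type OPC with Zfp191-null OPC as theirs, and an input pooled from wild-type and null cells of both kinds. Cells had been isolated by immunopanning, and OLG came from progenitors differentiated for 5 days in medium that lacked PDGF and contained 40 ng/ml triiodothyronine. The same antibody against ZNF24 was used for all 4 precipitates. The OLG list held 1752 peaks, each 221 bp wide, and the OPC list 4643 peaks, each 209 bp wide. They held positions and no tag counts, so library depth is unknown. Neither the cell type of a library nor the background at a peak in the null and input libraries could be checked from them. With 1 library a group there was no test between the cell types, and counts are set beside those of all protein-coding genes in the same list. Intervals are exact (Clopper-Pearson) 95% intervals. They cover counting error over genes only, and genes that share a promoter are not independent.

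Before the counts, sequences are shown for some of the sites, to give a view of what lay under the peaks. The first is where the peaks of both lists overlapped, in intron 1 of Eef1a1, the gene of the factor that delivers transfer RNAs (chr9:78481336-78481457, minus strand). The next 3 are the intronic part of the 100 bases around an OLG peak centre, at Rpl5 (chr5:107900647-107900706), Eef2 (chr10:81176890-81176989) and Eif5a2 (chr3:28781548-28781647), all on the plus strand. The 4 after them are the same for OPC peaks at Rps6 (chr4:86857141-86857240, minus strand), Rpl19 (chr11:98027107-98027206, plus strand), Eef1e1 (chr13:38658811-38658906, minus strand) and Rps3 (chr7:99483463-99483562, minus strand). The last is the part of the OPC peak at Eif3f that lies before the RefSeq start (chr7:108934262-108934414, plus strand). Sequences are from GRCm38.p6, the last from the RefSeq promoter table of that build, and each reads 5' to 3' on the strand of its gene. Capitals mark every CG.
Eef1a1, both lists: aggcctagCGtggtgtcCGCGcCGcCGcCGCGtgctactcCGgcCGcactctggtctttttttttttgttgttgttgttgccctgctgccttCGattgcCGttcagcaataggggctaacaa
Rpl5, OLG: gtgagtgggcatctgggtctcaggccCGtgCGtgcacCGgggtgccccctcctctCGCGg
Eef2, OLG: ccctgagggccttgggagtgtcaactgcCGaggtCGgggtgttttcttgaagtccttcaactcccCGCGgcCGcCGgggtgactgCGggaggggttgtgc
Eif5a2, OLG: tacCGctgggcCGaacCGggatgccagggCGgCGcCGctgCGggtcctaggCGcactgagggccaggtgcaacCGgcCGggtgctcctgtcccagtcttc
Rps6, OPC: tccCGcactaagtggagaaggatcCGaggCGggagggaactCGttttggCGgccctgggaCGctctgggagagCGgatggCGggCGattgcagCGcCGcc
Rpl19, OPC: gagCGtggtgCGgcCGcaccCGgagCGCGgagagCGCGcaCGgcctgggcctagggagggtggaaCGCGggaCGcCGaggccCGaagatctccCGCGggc
Eef1e1, OPC: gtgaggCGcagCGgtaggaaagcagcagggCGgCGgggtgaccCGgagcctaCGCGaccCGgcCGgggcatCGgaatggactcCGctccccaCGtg
Rps3, OPC: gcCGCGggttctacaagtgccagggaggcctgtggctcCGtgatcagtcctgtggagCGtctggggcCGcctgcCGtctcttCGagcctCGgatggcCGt
Eif3f, OPC: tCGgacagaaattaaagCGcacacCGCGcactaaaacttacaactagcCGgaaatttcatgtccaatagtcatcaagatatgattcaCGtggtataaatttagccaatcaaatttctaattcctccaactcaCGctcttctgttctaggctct

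The Rpl19 stretch was 78.0% GC with 16 CG pairs, the Rps6 stretch 68.0% with 11, and the Eif3f stretch 39.9% with 7. The Eef1a1 stretch was 57.4% GC. Eif3f is shown for its low GC content. The 200 bp around the centre of the 8 OLG peaks within 1 kb of a member had a median GC content of 65.5%, with a range of 58.0 to 72.0%, against 68.5% for the 838 OLG peaks within 1 kb of any protein-coding gene. For the 28 such OPC peaks at members the median was 67.8%, with a range of 41.0 to 76.0%, against 64.0% for 1646 OPC peaks. None of the sequences above holds a tandem repeat of TCAT, the sequence known to be bound by ZFP24.

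In OLG, 8 of the 149 members, or 5.37% (2.35 to 10.3), had a peak whose centre lay at most 1 kb away from a start of their protein-coding transcripts, against 4.07% of all protein-coding genes. In OPC, 27 members, or 18.1% (12.3 to 25.3), had one, against 8.21%. Within 10 kb the counts were 14 members in OLG, or 9.40% (5.23 to 15.3), against 6.48% of all genes, and 34 members in OPC, or 22.8% (16.3 to 30.4), against 12.8%. The OLG share of members was thus close to that of all genes, which lay inside its interval at both distances, and the OPC share was above it at both. The median distance from a member to its nearest peak was 195471 bp in OLG and 68794 bp in OPC, against 334652 bp and 129458 bp for all genes. At 1 kb, the members just inside the limit were Rpl23 and Rps3a1 in OLG (411 and 635 bp) and Eef1akmt3 and Rpl7 in OPC (422 and 836 bp). Outside lay Rpl13a in OLG (1910 bp) and Rpl29 and Rpl23a in OPC (1458 and 5275 bp). At 10 kb, Rpl24 (7952 bp) and Rps14 (9778 bp) were just inside in OLG and Rps10 (11318 bp) and Rps2 (12306 bp) just outside. For OPC these were Rps29 (9576 bp) inside, and Eif1 (10371 bp) and Rpl37a (10555 bp) outside. Of the members, 116 of 149 had no peak within 1 kb in either list, against 19243 of 21668 genes, and 105 had none within 10 kb, against 17958 genes. Lacking a peak was thus less common by count among members than among all genes.

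The intervals of the 3 classes overlapped in both lists, and within 1 kb the large subunit had the highest share of the 3 in each. In OLG, 3 of 49 large subunit genes (6.12%, 1.28 to 16.9), 1 of 33 small subunit genes (3.03%, 0.0767 to 15.8) and 4 of 67 factor genes (5.97%, 1.65 to 14.6) had a peak within 1 kb, and all 3 intervals held the background of 4.07%. In OPC, 12 of the 49 large subunit genes, or 24.5% (13.3 to 38.9), had one. Of the small subunit genes, 5 of 33, or 15.2% (5.11 to 31.9), had an OPC peak, and of the factor genes 10 of 67, or 14.9% (7.40 to 25.7). The OPC background of 8.21% lay below the interval of the large subunit and inside the other 2. Among the factors, initiation and elongation genes stood apart in share: 1 of 54 Eif genes had an OLG peak (1.85%, 0.0469 to 9.89) and 5 had an OPC peak (9.26%, 3.08 to 20.3). Of the 13 Eef genes, 3 had an OLG peak (23.1%, 5.04 to 53.8) and 5 an OPC peak (38.5%, 13.9 to 68.4). The Eif and Eef intervals overlap in both lists, and the difference was not tested. Among these Eef genes, 7 encode elongation factors or their partners (2 with an OLG peak, 3 with an OPC peak) and 6 a kinase or methyltransferases of these factors (1 and 2). Within 10 kb, large subunit genes reached 5 of 49 in OLG (10.2%) and 17 in OPC (34.7%), and small subunit genes 5 of 33 in OLG (15.2%) and 7 in OPC (21.2%). Factor genes stayed at 4 in OLG (5.97%) and 10 in OPC (14.9%), since every factor peak within 10 kb was also within 1 kb. The share of all genes within 10 kb was 6.48% in OLG and 12.8% in OPC. Both lay inside the intervals of the factor genes.

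**Figure D1:**
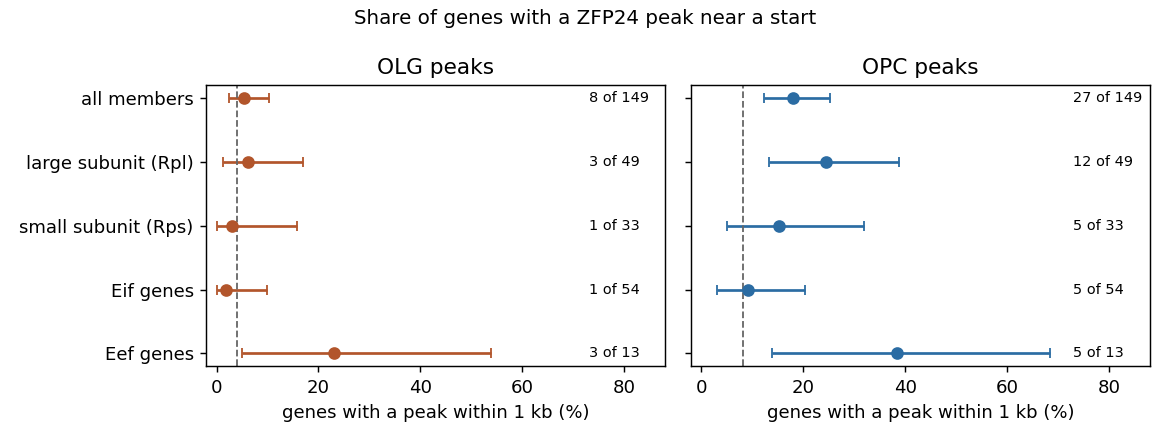
Share of genes with a peak centre within 1 kb of a start (x axis, %), for all members and by class (rows), in the OLG list (left) and the OPC list (right). Points are shares with exact 95% intervals, the counts stand at the right, and the dashed line is the share of all protein-coding genes (4.07% in OLG, 8.21% in OPC). The Eef genes in OLG, and all members, the large subunit and the Eef genes in OPC, lie above the line with their whole interval.

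Large subunit genes with an OLG peak within 1 kb were Rpl35a, Rpl5 and Rpl23. Rpl35a, mutated in some human patients with Diamond-Blackfan anaemia, had its OLG peak centre 1 bp from a start (chr16:33056418-33056638), in a 5' untranslated exon. The start of Iqcg also lay within 1 kb of it. At Rpl5, whose product carries 5S ribosomal RNA into the ribosome, the OLG peak was 155 bp downstream (chr5:107900547-107900767). Rpl23, like Rpl5 a gene whose product can bind the p53 regulator MDM2, had an OLG peak 411 bp downstream (chr11:97781916-97782136), and both were in intron 1. Their nearest OPC peaks were at 179128 bp for Rpl35a, 165199 bp for Rpl5 and 57177 bp for Rpl23.

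The 12 large subunit genes with an OPC peak within 1 kb were other genes. At Rpl32 the peak centre was 23 bp downstream (chr6:115808620-115808828) and at Rpl21 it was 56 bp upstream (chr5:146833035-146833243), both in 5' untranslated exons. Rpl36 (137 bp, chr17:56613449-56613657) and Rpl19 (233 bp, chr11:98027053-98027261) had theirs in intron 1. The proteins of all these genes are integral parts of the subunit. Rpl9 (148 bp, chr5:65391128-65391336) shares its peak with Lias, the lipoic acid synthase gene, which also starts within 1 kb of it. Rpl26, whose product can also bind p53 messenger RNA, had a peak 165 bp downstream (chr11:68901696-68901904) and another at -4436 bp, upstream (chr11:68897043-68897251). Rpl10a had its OPC peak in a coding exon at 245 bp (chr17:28328718-28328926).

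Rpl8, whose product lies near the catalytic centre of the ribosome, was the member with 2 OPC peaks within 1 kb, at 281 bp (chr15:76904279-76904487) and 854 bp (chr15:76904852-76905060) downstream. At Rpl24, the gene mutated in the Belly spot and tail mouse, the OPC peak was 351 bp downstream in intron 2 (chr16:55966522-55966730). Rpl39, the gene of a small protein of the exit tunnel, had an OPC peak 370 bp downstream in intron 1 (chrX:37084928-37085136). At Rpl36al (362 bp upstream, chr12:69184341-69184549) and Rpl7 (836 bp upstream, chr1:16105394-16105602) the peak was nearer to another gene's start. These were Mgat2, a glycosyltransferase gene, at 288 bp and Rdh10, a retinol dehydrogenase gene, at 276 bp.

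Small subunit genes gave 1 OLG peak within 1 kb, at Rps3a1, 635 bp downstream in intron 1 (chr3:86141957-86142177), with its nearest OPC peak at 61481 bp. The 5 with an OPC peak within 1 kb were Rps27a, Rps14, Rps10, Rps3 and Rps6. Rps27a encodes a fusion of ubiquitin with a ribosomal protein, and its OPC peak lay 37 bp downstream (chr11:29547968-29548176) in sequence of 41.0% GC, the lowest among the OPC peaks at members. Clhc1 starts within 1 kb of the same peak. Rps14, whose loss underlies the anaemia of the human 5q- syndrome, had a peak 95 bp upstream of its nearest start (chr18:60774397-60774605). Rps10 had a peak 115 bp downstream (chr17:27635009-27635217), which was 109 bp from a start of the read-through gene RPS10-NUDT3. Rps3 (123 bp, chr7:99483409-99483617) and Rps6 (221 bp, chr4:86857087-86857295) had theirs in intron 1. Rps6 encodes the protein that S6 kinases phosphorylate when mTOR is active.

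The intervals of the initiation factor genes held the background in both lists, with 1 of 54 in OLG (1.85%, against 4.07% of all genes) and 5 of 54 in OPC (9.26%, against 8.21%). The OLG peak was at Eif5a2, a copy of the hypusine-bearing factor gene Eif5a, 322 bp downstream in intron 1 (chr3:28781488-28781708). In OPC they were at Eif1ad, 31 bp downstream (chr19:5366668-5366876) and also within 1 kb of the start of Banf1, at Eif3f, a subunit gene of the eIF3 complex, 51 bp upstream (chr7:108934262-108934470), and at Eif4ebp1, 109 bp downstream in a coding exon (chr8:27260334-27260542). Eif4ebp1 encodes a repressor of eIF4E that mTOR switches off. OPC peaks also lay at Eif2b3, 149 bp downstream in intron 1 (chr4:117019453-117019661), and at Eif5b, 176 bp downstream (chr1:37998082-37998290) and also within 1 kb of the start of Txndc9. Eif2b3 encodes a subunit of eIF2B, and Eif5b the factor that joins the subunits. The complexes were otherwise mostly without peaks within 10 kb. None of the 12 genes of the eIF4 group (95% upper limit 26.5%), the 5 of eIF2 (52.2%) or the 4 eIF2 kinase genes (60.2%) had one in either list. Of eIF3, 0 of 14 had an OLG peak and 1 had an OPC peak, and of eIF2B, 0 of 5 and 1. These groups are small, and their upper limits include the background share.

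Elongation genes held both members with a peak within 1 kb in each list. Eef1a1 had an OLG peak 278 bp (chr9:78481336-78481556) and an OPC peak 371 bp downstream (chr9:78481249-78481457), which overlapped in the intronic sequence printed above. Eef1akmt3, a methyltransferase gene for eEF1A, had an OLG peak 129 bp (chr10:127041274-127041494) and an OPC peak 422 bp downstream (chr10:127040987-127041195), both in a coding exon and not overlapping. It lies beside Mettl1, a transfer RNA methyltransferase gene, whose start was within 1 kb of both peaks. Eef2, the gene of the factor that moves the ribosome along, had an OLG peak 309 bp downstream (chr10:81176830-81177050) and no OPC peak within 10 kb, with the nearest at 27222 bp. OPC peaks alone lay at Eef1b2, an exchange factor gene of eEF1A, 146 bp downstream (chr1:63176867-63177075) and also within 1 kb of the start of the complex I gene Ndufs1, at Eef1e1, 197 bp (chr13:38658757-38658965), and at Eef1akmt2, 56 bp (chr7:132852456-132852664). Eef1e1 encodes a scaffold protein of the complex of transfer RNA synthetases. The neural copy of Eef1a1, Eef1a2, had its nearest OLG peak at 54778 bp and its nearest OPC peak at 53790 bp.

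**Figure D2:**
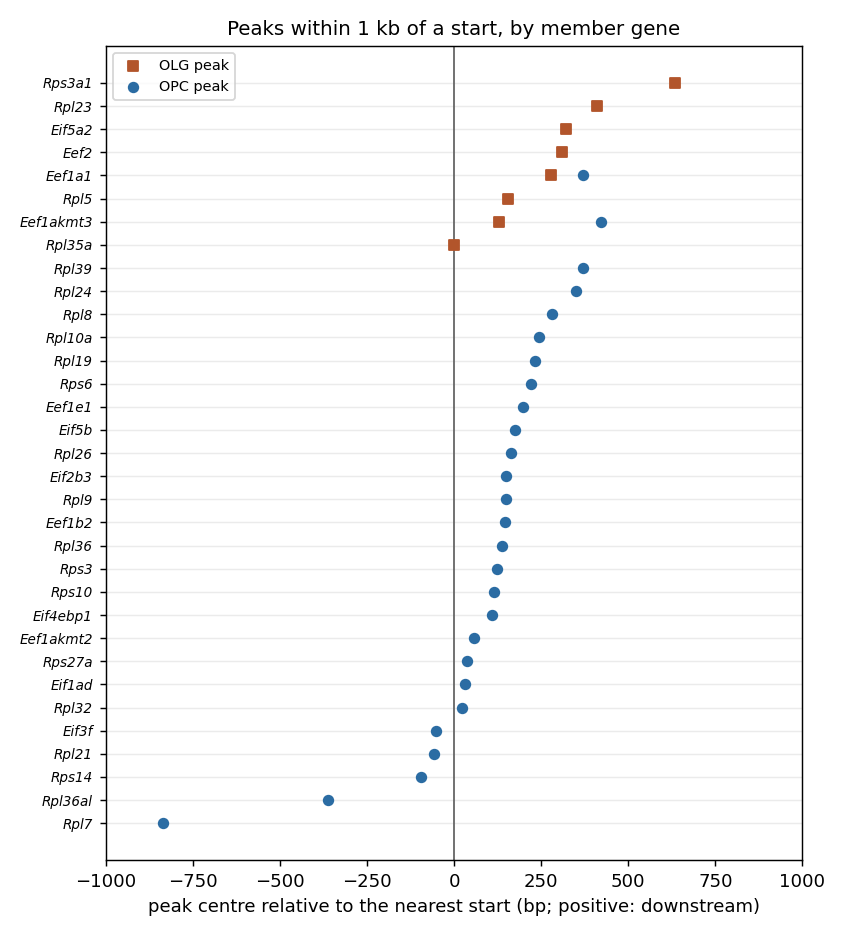
Position of the peak centre relative to the nearest start (x axis, bp, positive downstream) for each of the 33 members with a peak within 1 kb (rows), with OLG peaks as squares and OPC peaks as circles, 1 nearest peak per list. All 8 OLG peaks and 22 of 27 OPC peaks lie downstream of the start, and Eef1a1 and Eef1akmt3 carry both symbols.

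Peaks at members lay mainly just downstream of the start. Downstream of the nearest start lay 8 of 8 OLG peaks, against 71.9% of the 882 genes with an OLG peak within 1 kb, and 22 of 27 OPC peaks (81.5%), against 65.1% of 1780 genes. The median position was +293.5 bp in OLG and +146 bp in OPC, against +183.5 bp and +130 bp for all such genes. The middle 50% of the OPC values, between the quartiles, was narrower at members, at +34 to +227 bp, against -144 to +329 bp. By the gene's own transcripts, 6 of 8 OLG peaks were in intron 1, against 34.6% of all genes with an OLG peak within 1 kb. In OPC, 10 of 27 peaks were in intron 1 (37.0%, against 33.1%), 8 in a 5' untranslated exon (8 of 27, against 373 of 1780), 5 in a coding exon (18.5%, against 14.6%) and 3 upstream of every start (11.1%, against 28.5%). Members are short genes, with a median length of 5245 bp against 17376 bp for all genes. None of the members' nearest peaks within 1 kb overlapped a small nucleolar RNA gene, a kind of gene that introns of ribosomal protein genes often hold. The farther OPC peak of Rpl8 was not checked for this, and the share over all genes was not counted.

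Genes with peaks in both lists were few, among members and among all genes alike. Within 1 kb these were 2 members. They made up 2 of the 8 with an OLG peak, against 26.9% of such genes over all genes. Of the 27 with an OPC peak they made up 7.41%, against 13.3%. The OLG share was thus close to that of all genes, and the lower OPC share rests on 2 members. Within 10 kb the members with both were 4, or 28.6% of the 14 and 11.8% of the 34, against 32.6% and 16.6%. The other 2 were Rpl24 and Rps14, whose OLG peaks (chr16:55974117-55974337 and chr18:60757339-60757559) lay 7952 and 9778 bp from their starts. For Rps14 the 2 lists used different annotated starts, at 60747671 for the OLG peak and 60774596 for the OPC peak. Its OLG peak was nearer to a start of Ndst1 (8799 bp). Among members, peaks of the 2 lists overlapped at Eef1a1 only. The lists differ in length and perhaps in depth, so that a member with a peak in 1 list is not shown to lack binding in the other.

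Between 1 and 10 kb, most peaks belonged by position to neighbours. In OLG, 6 members had their nearest peak there, and for 2 of them, Rpl13a and Rps13, the member's start was the nearest of any protein-coding gene. Rpl13a had its OLG peak in a coding exon (chr7:45126606-45126826), which overlapped the small nucleolar RNA gene Snord34. At Rps13 the OLG peak lay 6578 bp away, beyond the end of the gene (chr7:116327445-116327665). The OLG peak counted for Rpl24 (7952 bp) was nearest to Zbtb11, a zinc finger gene. In OPC, 7 members had their nearest peak at 1 to 10 kb, and the member was the nearest gene for 2 of them, among them Rpl29 (1458 bp, chr9:106427892-106428100). The peaks counted for Rpl23a (5275 bp), Rpl3 (7665 bp), Rpl18 (8544 bp) and Rps29 (9576 bp) were nearest to Tlcd1, Syngr1, Spaca4 and Lrr1. The 10 kb counts thus say less about members than those at 1 kb, where the member was the nearest gene for 8 of 8 in OLG and 24 of 27 in OPC.

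None of the peaks near members held the TCAT repeat. Of the 13 OLG peaks within 10 kb of a member, 0 held at least 12 bases of tandem TCAT (a count of 0 allows up to 23.1%), and of the 36 OPC peaks, 0 (up to 8.33%). Both limits are approximate, 3 divided by the number of peaks, unlike the exact limits given elsewhere. The shares among all peaks within 10 kb of a protein-coding gene were 4.07% of 1179 in OLG and 6.56% of 2364 in OPC. Within 1 kb the counts at members were 0 of 8 in OLG and 0 of 28 in OPC, against 2.74% and 2.55% of peaks near any protein-coding gene. With so few peaks a share like that of other promoters was not detectable. The longest run that followed the repeat in any peak near a member was 5 bases in OLG and 7 bases in OPC.

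Across promoter GC content the members' OPC share did not go up, while that of all genes did. Promoters were read as the 250 bases before and 50 after the start that most of a gene's protein-coding transcripts use. Members had a median GC content of 57.0% there, against 55.7% for all genes, and a median CpG content of 0.809 of that expected from C and G, against 0.555. Over the GC quartiles, low to high, the members with an OLG peak within 1 kb were 0 of 10, 2 of 50, 3 of 55 and 3 of 34, against shares of all genes of 1.04%, 2.57%, 4.30% and 8.15%. Both shares went up with GC in OLG, but that of members rests on only 8 genes with a peak. The members with an OPC peak were 2 of 10, 10 of 50, 10 of 55 and 5 of 34, or 20.0%, 20.0%, 18.2% and 14.7%, against 2.68%, 6.17%, 9.90% and 13.8% of all genes. Members thus lay above all genes in the lower 3 quartiles of the OPC list and close to them in the highest. Weighted to the members' quartiles, the share of all genes was 4.38% in OLG and 9.05% in OPC. The lowest quartile held few members, and the difference was not tested.

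**Figure D3:**
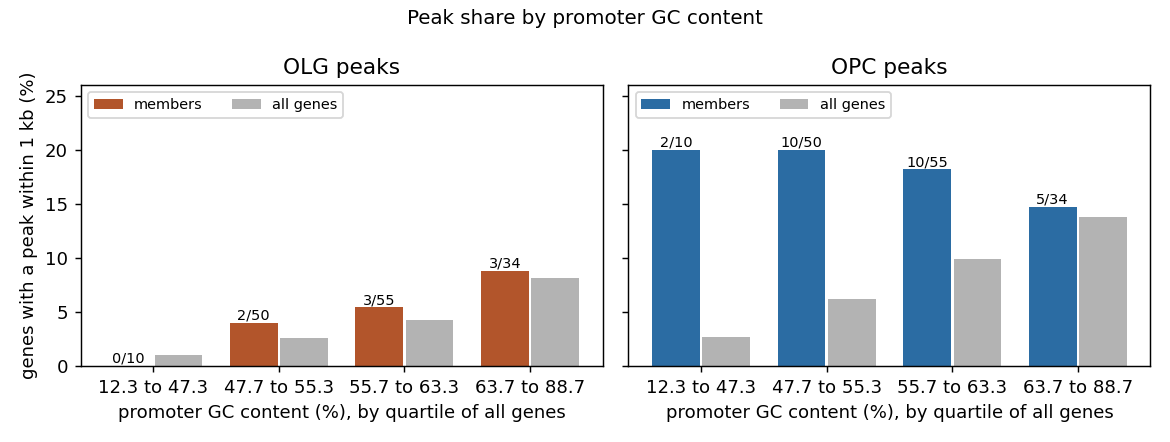
Share of genes with a peak within 1 kb (y axis, %) by quartile of promoter GC content (x axis, %), for members (coloured, with counts) and all protein-coding genes (grey), in OLG (left) and OPC (right). In OLG the shares of members, which rest on 8 genes with a peak, and of all genes both climb. In OPC the members stay between 14.7% and 20.0% while all genes climb to 13.8%.

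Shared promoters were more common among members. Another protein-coding gene started within 1 kb of 28 members (18.8%), against 11.9% of all genes. Of these 28, 2 had an OLG peak (7.14%, 0.877 to 23.5) and 9 an OPC peak (32.1%, 15.9 to 52.4), against 5.39% and 14.6% of all genes with such a neighbour. Of the other 121 members, 6 had an OLG peak (4.96%, 1.84 to 10.5) and 18 an OPC peak (14.9%, 9.06 to 22.5), against 3.89% and 7.35%. The OPC share of members was above that of all genes both with and without a neighbouring start.

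Promoter motifs were searched on both strands in the same window. CCGGAAG, a core of ETS factor sites, was in 27.5% of member promoters, against 11.2% of all promoters, and GGGCGG, the GC box bound by SP1, in 62.4%, against 45.1%. AAGATGGCG, a core of YY1 sites, was in 4.70%, against 1.81%, CACGTG (the E-box) in 12.8%, against 7.86%, and TATAAA in 8.05%, against 12.6%. Tandem TCAT of at least 12 bases was in the promoter of 1 member (0.671%), against 0.0877% of all promoters. That member, Eif2b1, had its nearest peaks 517802 bp (OLG) and 132824 bp (OPC) away. A tract of C followed by at least 4 pyrimidines, within 5 bases of the annotated start, was at 29.5% of members, against 18.6%. Such a TOP tract needs an exact start, which an annotation does not always give. At the members with an OPC peak within 1 kb this tract was in 6 of 27 (22.2%), against 38 of 116 (32.8%) at members with no peak within 1 kb. Among all genes the share with an OPC peak within 1 kb was nearly equal, at 8.06% with the tract and 8.25% without. The difference at members was not tested. Motifs may overlap each other, and a match is a run of letters and no measured site.

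Members with a GC box had an OPC peak less often by count than members without, in the opposite direction to all genes, and no test was made. Among the motifs searched, this was the largest contrast by share in the OPC list, and no allowance was made for looking at several. Members with each other motif also had an OPC peak less often by count, as with CCGGAAG (17.1%, against 18.5% without). In OLG the directions were mixed, and the E-box went the other way (15.8% with, 3.85% without). Of the 93 members with GGGCGG, 4 had an OLG peak within 1 kb, and of the 56 without it, 4 did, against 5.99% and 2.49% of all genes. In the same order, 8 of the 93 had an OPC peak within 1 kb (8.60%) and 19 of the 56 (33.9%). Among all genes the OPC shares were 11.6% with the motif and 5.44% without. The OPC direction was the same in the large subunit (4 of 25 with, 8 of 24 without), the small subunit (0 of 16 and 5 of 17) and the factors (4 of 52 and 6 of 15). Within the GC quartiles it was 0 of 2 and 2 of 8, 1 of 21 and 9 of 29, 2 of 37 and 8 of 18, and in the highest quartile 5 of 33 and 0 of 1. Among all genes the OPC shares with and without the box were 7.23% and 2.45% in the lowest quartile and 7.85% and 5.58% in the next. They were 10.4% and 9.21% in the third, and 13.7% and 14.5% in the highest. The direction over all genes thus nearly vanished in the third quartile and turned in the highest. For members, the size of the contrast depended on the start used. With the promoter read at the most downstream start of each gene (added after the data were seen), the OPC shares of members were 15.1% (8.48 to 24.0) with the motif and 23.2% (13.0 to 36.4) without. With the promoters of all starts (also added after the data were seen) they were 15.9% and 23.8%. The direction held in these 3 readings, but the intervals overlap in the last 2, so the contrast between members with and without the box is uncertain. The promoter window also ends 50 bases after the start, while the median OPC peak centre at members lay at +146 bp. Many peak centres thus lay outside the window. In the 200 bp around the centre, GGGCGG was in 9 of 28 OPC peaks at members (32.1%), against 31.4% of OPC peaks near any protein-coding gene.

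To show the 2 kinds of promoter, the 250 bases before the RefSeq start are printed for Rpl24 (chr16:55966025-55966274, plus strand), which had an OPC peak and no GC box, and for Eif1ax (chrX:159371928-159372177, plus strand), an eIF1A gene with no peak within 10 kb in either list. Among members with a single annotated start that is also the RefSeq start and no such peak, Eif1ax had the most GC boxes, 10 on both strands with overlaps counted. Both are from the RefSeq promoter table (GRCm38.p6), which held 114 of the 149 members. Capitals mark GGGCGG and its reverse complement.
Rpl24: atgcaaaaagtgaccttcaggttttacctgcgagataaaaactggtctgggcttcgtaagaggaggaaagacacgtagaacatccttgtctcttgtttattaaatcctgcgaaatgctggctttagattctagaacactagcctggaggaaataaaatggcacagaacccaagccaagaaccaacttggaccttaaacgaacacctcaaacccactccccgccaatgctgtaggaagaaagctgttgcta
Eif1ax: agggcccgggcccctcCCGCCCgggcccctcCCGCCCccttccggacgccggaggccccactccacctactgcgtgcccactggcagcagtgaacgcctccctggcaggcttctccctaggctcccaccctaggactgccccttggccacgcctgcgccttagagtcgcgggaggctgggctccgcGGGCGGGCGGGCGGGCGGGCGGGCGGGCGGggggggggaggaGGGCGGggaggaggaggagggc

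**Figure D4:**
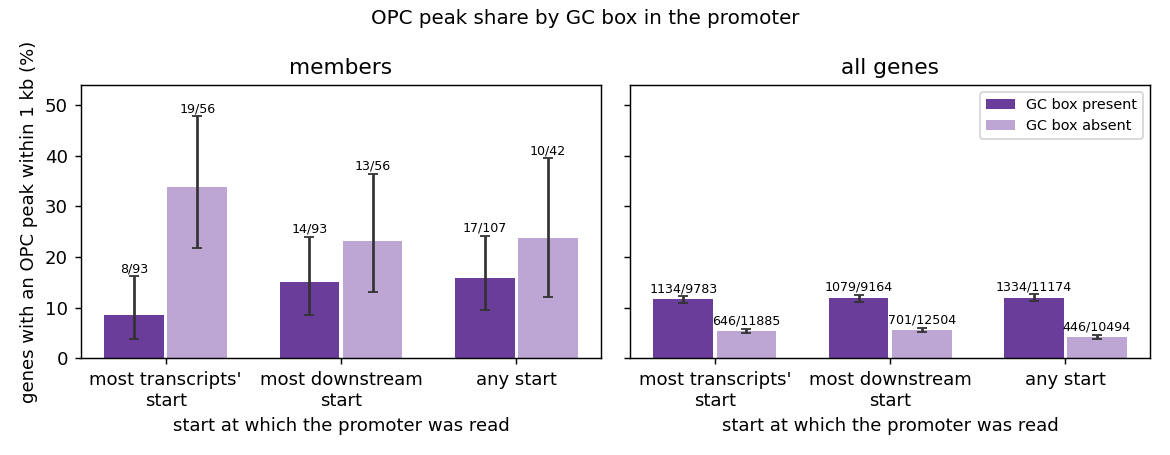
Share of genes with an OPC peak within 1 kb (y axis, %) with and without GGGCGG in the promoter, for members (left) and all protein-coding genes (right), with the promoter read at 3 choices of start (x axis). Bars show shares with exact 95% intervals and counts: members with the box are lower at each choice, at 8.60% against 33.9% at the first and 15.1% against 23.2% at the second, and all genes run the other way.

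Other genes of translation gave a mixed picture. Mitochondrial ribosomal protein genes, whose products build the separate ribosome of mitochondria, had 3 of 78 with an OLG peak within 1 kb (3.85%, 0.800 to 10.8) and 14 of 78 with an OPC peak (17.9%, 10.2 to 28.3), shares close to those of the members. They included Mrps2 in OLG at +24 bp, and in OPC Mrpl11 at -1 bp, Mrpl21 at +8 bp, Mrps18c at +18 bp, Mrps33 at -34 bp and Mrpl57 at +47 bp. Ribosome biogenesis genes had 3 of 56 in OLG (5.36%) and 7 in OPC (12.5%, 5.18 to 24.1). Nop56, a core protein gene of box C/D ribonucleoproteins, had peaks in both lists, at -300 bp in OLG and +191 bp in OPC. Utp4 had an OLG peak at +179 bp, and OPC peaks lay at Ubtf, a ribosomal RNA transcription factor gene, at +232 bp, and at Mphosph10, Tsr1 and Polr1d at +190, +230 and -435 bp.

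The list of transfer RNA synthetase genes and their partners had 3 of 22 in OLG (13.6%, 2.91 to 34.9) and 2 in OPC (9.09%). These were Farsa, Aimp1 and Rars at +99, -106 and +123 bp in OLG, and Dars and Eprs at +104 and +159 bp in OPC. Aimp1 encodes a scaffold protein of the synthetase complex and no synthetase. Regulators and release factors had 0 of 38 in OLG (upper limit 9.25%) and 2 in OPC (5.26%), which were Rptor, of the mTORC1 complex, at -137 bp and the helicase gene Ddx3x at +160 bp. Of 7 ribosomal protein genes that the naming rule leaves out, Rpsa had an OPC peak 104 bp downstream and none had an OLG peak. All intervals given for these lists, except those of the mitochondrial ribosomal proteins in OPC, include the background of the list.

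**Figure D5:**
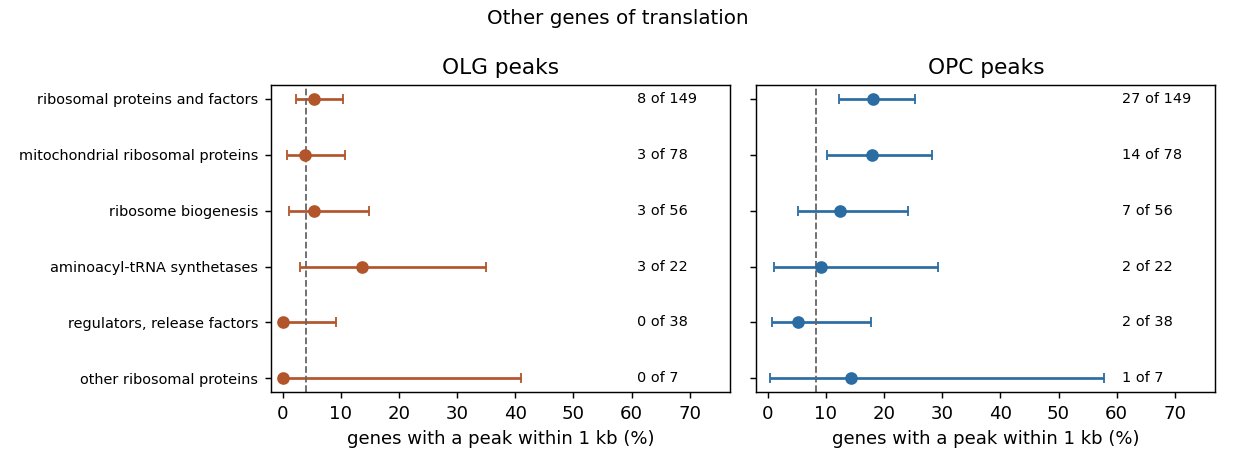
Share of genes with a peak within 1 kb (x axis, %) for the members and 5 other lists of translation genes (rows), in OLG (left) and OPC (right), with exact 95% intervals, counts at the right and the share of all protein-coding genes as a dashed line. In OPC the members lie at 18.1% and the mitochondrial ribosomal proteins at 17.9%.

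Ribosomal protein genes have many processed pseudogenes, copies of their messenger RNA whose sequence resembles the exons. Of 293 such pseudogenes with Rpl, Rps, Eif or Eef names, 0 had an OLG peak within 1 kb of the start, against 0.0887% of all processed pseudogenes, and 2 had an OPC peak (0.683%), against 0.296%. The sources used here do not say how reads that match several copies were placed, and its part in the exonic peaks was not tested.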

How the data were processed

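Per the submitters' processing notes, reads were aligned with BWA (version not given) and processed with HOMER 4.8.3 on mm10. The deposited lists give peak positions without a score, and the calling options and threshold were not stated. Per the labels' protocols, reads were 75 nt and single-end. The labels name each list for both the wild-type and the null library of its cell type, and the lists were read as wild-type binding. Which part the null and input libraries played in the calling was not stated either.

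Peak centres were compared with every start of a protein-coding transcript in GENCODE M21 basic, on the 20 chromosomes of the lists, and positions are 1-based. Members and gene lists were chosen with earlier results of these data known. Members with a peak within 10 kb are named, except some genes that are counted but not reported by name here, and of other lists up to 6 genes nearest to a peak. Of 57 biogenesis genes 56 and of 39 regulators 38 were matched, and of the other lists all. Python 3.11.15, pandas 2.3.3, scipy 1.17.1 and pysam 0.24.0 were used, and the distance and repeat steps were tested on simulated data. No test was made, so shares stand beside all genes. Of names matching the rule's letters, 10 Rps6k and 6 -ps genes were left out. Alternatives were other starts, windows, peak edges, the lower part of each list and GC weighting.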

Additional observations from a re-analysis of the deposited data

How the results depend on the processing

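Of 42 other settings, 30 left the value within 1.5 times the reported count, or for shares within the interval of the reported one. Windows of 500 bp, 2 kb, 5 kb and 20 kb, the most upstream start alone, distances from the peak edge and leaving out shared promoters moved no member count by more than that. In the peaks at or below the median, within each chromosome, of the number in the peak name, whose meaning is not stated, the OLG counts fell to 4 within 1 kb and 8 within 10 kb. The background shares there were 2.50% and 3.74%. That setting leaves fewer peaks by construction. All genes weighted to the members' GC quartiles had shares of 4.38% (OLG) and 9.05% (OPC) within 1 kb, and 7.06% and 14.0% within 10 kb. With promoters at the most downstream start, chosen after seeing the data, these were 4.48%, 9.33%, 7.22% and 14.3%. Members in both lists numbered 2 when both peaks were within 1 kb and 1 when the peaks had to overlap. Starts from the RefSeq promoter table were not run, since it held 76.5% of the members. The lists hold no score, so a stricter threshold could not be set, and depth is unknown.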

Other observations

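Inside the peaks themselves, the 200 bp around the centre, CCGGAAG was in 0 of 8 OLG and 4 of 28 OPC peaks within 1 kb of a member (14.3%), against 5.37% and 5.83% of peaks within 1 kb of any protein-coding gene. GGGCGG was in 4 of 8 OLG and 9 of 28 OPC peaks at members (32.1% in OPC), against 41.1% and 31.4%. CACGTG was in 0 of 8 OLG and 3 of 28 OPC peaks at members (10.7% in OPC), against 3.34% and 4.37%. These are counts of letters in few peaks, and no test was made.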
